A study of Mus musculus with 18 samples.

Results

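The 10 genes described here encode amino acid transporters of the plasma membrane or lysosome that serve growing and haemoglobin-making cells: Slc1a5, Slc3a2, Slc7a1, Slc7a5, Slc7a11, Slc38a2, Slc38a5, Slc43a1, Slc6a9 and Slc36a1. They were taken by symbol from a fixed list, and all 10 were found among the 23365 rows of a table of RNA-seq counts. All 10 also passed the filter on low counts, which left 13405 genes. The libraries came from mice with combinations of 3 kinds of Klf1 allele, wild type (WT), knockout (KO) and the missense allele MommeD45 (D45), and the series title places its missense changes in linker-2, between zinc fingers of the KLF1 protein. Spleen cells carrying both CD71 (the transferrin receptor) and the red cell lineage antigen TER119 had been sorted, so each library is a bulk sample of sorted erythroblasts. There were 3 WT/WT, 3 WT/D45, 3 D45/D45, 5 WT/KO and 4 D45/KO libraries, each under a mouse identifier of its own, and the replicates are stated to be biological. No genotype carried a treatment in the labels, and the sources used here give neither the ages of the mice nor how the KO allele was made. Per the design text, mice with a different mutant allele on each chromosome, here D45/KO, become anaemic through haemolysis and have large spleens, so a difference of D45/KO from other genotypes cannot be told apart from one that comes with anaemia.

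As background, red cell precursors import glutamine, leucine and other essential amino acids for globin synthesis, glycine for haem, and cystine and glutamate for glutathione. SLC7A5 and SLC7A11 reach the cell surface as partners of the heavy chain SLC3A2, and the pair of SLC3A2 with SLC7A5 exchanges internal glutamine for external leucine. SLC1A5 (ASCT2) carries glutamine and other small neutral amino acids, and in people it is also a receptor for retroviruses. Leucine and arginine inside the cell are read by the mTORC1 pathway, and amino acid shortage is read by the integrated stress response through ATF4, which acts on amino acid response elements near genes such as Slc7a11 and Slc38a2. KLF1 is an erythroid transcription factor that binds CACC boxes in promoters and enhancers of red cell genes.

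Start-site sequences are shown for Slc43a1, Slc6a9, Slc38a5 and Slc3a2, and KLF1 is the altered factor. At the scaling used here, these 4 genes were lower in 1 set of libraries than in the other within each genotype, as described further on. Slc1a5 and Slc7a5 were lower there too, but had no start-site entry. Each line is the 250 bases before a start site in RefSeq (GRCm38.p6), 5′ to 3′ on the strand of the gene. Capitals mark matches to CCNCNCCC, a CACC-type pattern, on either strand, and overlapping matches run together.
Slc43a1, chr2:84840073-84840322, plus strand: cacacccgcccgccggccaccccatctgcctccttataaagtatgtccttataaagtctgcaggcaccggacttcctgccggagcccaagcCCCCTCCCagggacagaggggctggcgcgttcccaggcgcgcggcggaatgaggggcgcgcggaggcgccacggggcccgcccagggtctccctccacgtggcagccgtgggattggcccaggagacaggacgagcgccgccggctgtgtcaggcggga
Slc6a9, first of 3 starts, chr4:117835008-117835257, plus strand: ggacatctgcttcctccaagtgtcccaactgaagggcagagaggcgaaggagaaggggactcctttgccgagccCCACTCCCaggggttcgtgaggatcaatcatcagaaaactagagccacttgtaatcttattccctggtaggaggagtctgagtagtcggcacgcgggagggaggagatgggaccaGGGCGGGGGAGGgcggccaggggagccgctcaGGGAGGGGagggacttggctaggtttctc
Slc38a5, chrX:8271131-8271380, plus strand: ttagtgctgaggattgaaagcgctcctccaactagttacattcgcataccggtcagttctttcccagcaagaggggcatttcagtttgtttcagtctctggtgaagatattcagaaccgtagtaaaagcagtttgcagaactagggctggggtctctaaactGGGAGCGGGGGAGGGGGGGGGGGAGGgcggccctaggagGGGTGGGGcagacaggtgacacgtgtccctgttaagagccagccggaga
Slc3a2, chr19:8713898-8714147, minus strand: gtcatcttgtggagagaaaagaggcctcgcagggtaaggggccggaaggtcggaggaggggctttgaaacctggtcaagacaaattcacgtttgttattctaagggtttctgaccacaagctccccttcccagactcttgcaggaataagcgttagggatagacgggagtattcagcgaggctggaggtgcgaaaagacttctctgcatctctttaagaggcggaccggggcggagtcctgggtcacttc
The Slc43a1 window held 1 match, the Slc6a9 window 4, the Slc38a5 window 9 and the Slc3a2 window 0. Entries were found for 8 of the 10 genes, with 11 windows in all, and the entries not found were Slc1a5 and Slc7a5. The pattern was present in 8 of the 11 windows, from 5 of the 8 genes, and in 45.9% of all 32851 windows of this length in the table. TGATGNAA, the core of an amino acid response element, was searched on both strands and was present in the window of Slc7a11 only, with 2 matches, against 3.45% of all windows. These matches describe letters in a window and show neither binding nor its absence.

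Total counts ran from 9360455 to 56323588 per library. Klf1 averaged 821 ± 322 counts per 1000000 (CPM, on TMM-adjusted library sizes, as all levels here) in WT/WT, 982 ± 386 in WT/D45, 1227 ± 457 in D45/D45, 415 ± 311 in WT/KO and 576 ± 209 in D45/KO (SD, n = 3, 3, 3, 5 and 4). The RNA level of a missense allele does not check its label, and the sources used here do not say what the KO allele removes. Libraries fell into 2 sets of 9 by B cell markers (12 of 13 in the file, among the genes tested). The summed level of these markers was 193 to 2140 CPM in the 9 high libraries and 1.79 to 15.9 CPM in the 9 low ones. The high set held 1 WT/WT, 1 WT/D45, 1 D45/D45, 3 WT/KO and 3 D45/KO libraries, so genotypes differ in their share of it. The summed erythroid markers were 28660 to 79030 CPM in the high set and 107000 to 748100 CPM in the low set, and genes of late red cell maturation were 3474 to 16010 CPM against 15910 to 57220 CPM. Results below are therefore also given within each set or adjusted for the mean log2 CPM of these markers, entered in the fit as a covariate, where that matters. In such bulk samples fewer cells of a type and less RNA per cell cannot be told apart. The TMM factors also separated the sets, at 1.094 to 1.935 in the high set and 0.3659 to 0.9544 in the low set. Differences in CPM between the sets therefore depend in part on this scaling.

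Over all 18 libraries, Slc1a5 was the transporter called between genotypes. It was lower in D45/KO than in WT/WT and than in WT/KO. No other of the 10 passed edgeR's test in any of the 7 comparisons made over all libraries. Within the libraries high in B cell markers others were called too, as given further on. Its level was 26.5, 22.1, 25.0 and 36.9 CPM in the 4 D45/KO libraries. In WT/WT it was 216, 604 and 665 CPM, and in WT/D45 158, 612 and 474 CPM. These 2 genotypes spanned nearly the same range, and their lowest libraries were the ones high in B cell markers. In D45/D45 Slc1a5 was at 110, 247 and 214 CPM, and in WT/KO at 113, 102, 99.2, 429 and 450 CPM. All 4 D45/KO libraries therefore lay below all 14 libraries of the other genotypes, while the other genotypes overlapped one another.

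**Figure D1:**
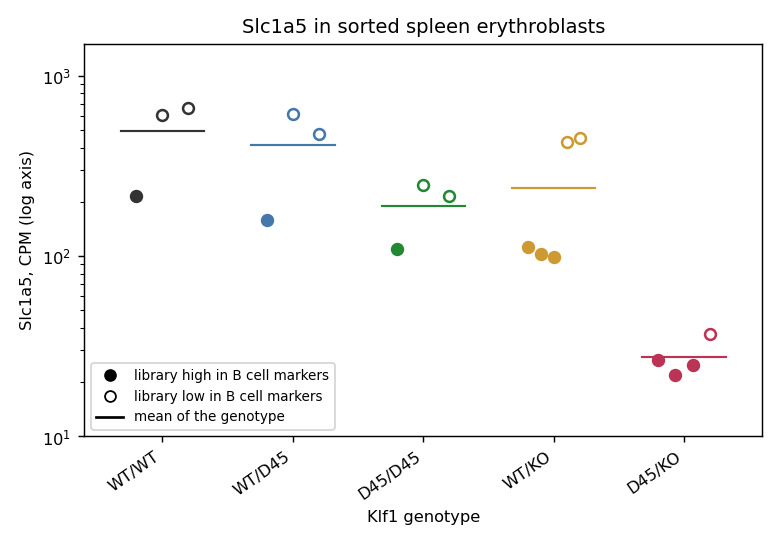
Slc1a5 in CPM (vertical log axis) in each of the 18 libraries by Klf1 genotype; filled points are libraries high in B cell markers, open points those low in them, and lines are genotype means. The D45/KO points, at 22.1 to 36.9 CPM, sit below every other point, of which the lowest is a WT/KO library at 99.2 CPM.

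Against WT/WT, Slc1a5 fell by 4.16 ± 0.66 on the log2 scale in D45/KO (SE of the fit, as for all log2 fold changes), which is 17.9-fold lower, with an adjusted p of 0.00737 in edgeR's quasi-likelihood test adjusted over all 13405 genes. In this comparison 0.619% of all genes were called at an adjusted p under 0.05, 0.358% lower and 0.261% higher, and 1 of the 10 transporters was called, lower. The call was kept in all 7 fits that left out 1 library of these genotypes, with log2 fold changes from -4.52 to -3.89. Within the 9 low libraries the log2 fold change was -4.11 (adjusted p 2.3e-06, with 1 D45/KO library) and within the 9 high ones -3.19 (adjusted p 0.00213, with 1 WT/WT library). In each such fit the lone library is assumed to vary like the others, and in the high one Slc1a5 was the 1 transporter called, lower, beside 0.0684% of all genes (0.0548% lower, 0.0137% higher). Adjusted for the marker level it was -3.68.

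Against WT/KO, which carries the same null allele beside a wild-type one, Slc1a5 fell by 3.11 ± 0.60 on the log2 scale (8.63-fold lower), with an edgeR adjusted p of 0.0420. Here 0.172% of all genes were called, 0.0597% lower and 0.112% higher, and again Slc1a5 was the 1 transporter called. The call was kept in 3 of 9 fits that left out 1 library. It was lost without WT/KO replicate 4 (adjusted p 0.0991) or 5 (0.0602), and without D45/KO replicate 1 (0.222), 2 (0.130), 3 (0.173) or 4 (0.140), although the log2 fold change stayed between -3.31 and -2.75. In a fit of these 2 genotypes alone it was -3.11 with an adjusted p of 0.180. Adjusted for B cell marker level it was -2.86 (adjusted p 3.2e-07). Within the low libraries the log2 fold change was -3.53 (adjusted p 2.7e-05), with 1 D45/KO and 2 WT/KO libraries, the lone one assumed to vary like the others. Within the high ones, with 3 of each, it was -2.05 (adjusted p 0.00462).

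Against D45/D45, which carries the missense allele on both chromosomes and no null allele, Slc1a5 had a log2 fold change of -2.78 ± 0.62, 6.89-fold lower, and did not pass edgeR's test (p 3.5e-04, adjusted p 0.582). The groups did not overlap, which held in the lower direction for 2.29% of all genes. Only 1 gene of 13405 was called here (0.00746%) and 0 of the 10 transporters, while 2 transporters, Slc1a5 and Slc7a11, had an unadjusted p under 0.05, as did 303 of all genes. DESeq2 called Slc1a5 (adjusted p 0.00139) and limma-voom called 0 of the 10. Adjusted for B cell marker level the difference passed (log2 fold change -2.28, adjusted p 3.7e-05), as it did within the low libraries (-2.59, adjusted p 0.00175) but not within the high ones (-2.16, adjusted p 0.147).

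The remaining genotypes differed less. D45/D45 against WT/WT gave Slc1a5 a log2 fold change of -1.38 ± 0.66 (edgeR adjusted p 1), which is 2.60-fold lower. In that comparison 0% of genes were called, and 545 genes and 1 of the 10 transporters, Slc7a11, had an unadjusted p under 0.05. DESeq2 called 69 genes and limma-voom 0, and neither called any of the 10 transporters. Adjusted for B cell marker level Slc1a5 was called (-1.40, adjusted p 0.0124), as within the low libraries (-1.52, adjusted p 0.00333). With the replicate number as a block, 10 genes were called (6 higher, 4 lower) and 0 transporters. In these genotypes the number goes together with the B cell marker level, so it does not show pairing. WT/D45 against WT/WT gave -0.25 ± 0.65 (adjusted p 1), with 0% of genes called, 194 genes and 0 transporters under an unadjusted p of 0.05, and 0 genes called by DESeq2 and by limma-voom. WT/KO against WT/WT gave -1.05 ± 0.57 (adjusted p 0.818), with 0% of genes called, 573 genes and 0 transporters under an unadjusted p of 0.05, and 19 genes called by DESeq2 and 1 by limma-voom, with no transporter in either. In the authors' deposited table, the log2 fold change of WT/WT over WT/KO for Slc1a5 was 1.32 (p 0.0372, adjusted p 0.853), and all 9 of the transporters it lists had an adjusted p of 0.853 or more. In these 3 comparisons all 10 transporters overlapped between the genotypes. Lower and higher groups without overlap made up 3.65% and 7.38% of all genes for D45/D45, 1.19% and 2.86% for WT/D45 and 0.627% and 0.985% for WT/KO, each against WT/WT. All these comparisons share libraries with the D45/KO ones or with each other, so their values stand side by side and are not independent.

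Whether the D45 allele lowered Slc1a5 more beside a null allele than beside a wild-type allele was tested as an interaction. The log2 fold change that comes with D45 beside KO, less that beside WT, was -2.86 ± 0.86 (p 0.00418, edgeR adjusted p 1), in a test that called 1 gene of 13405 (0.00746%). Of the 10 transporters 0 were called by edgeR, DESeq2 or limma-voom, and 1 had an unadjusted p under 0.05, Slc1a5. Adjusted for B cell marker level the interaction for Slc1a5 was -2.55 (adjusted p 5.8e-04) and within the low libraries -3.25 (adjusted p 0.00102), but within the high ones -1.61 (adjusted p 0.911).

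Slc1a5 was also low within the transporter repertoire of D45/KO. The 10 genes together held 0.155% to 0.396% of the counts of a library. Slc1a5 made up 13.6% ± 0.827 of these counts in WT/WT (range 12.7% to 14.4%), 12.1% ± 1.97 in WT/D45 and 9.63% ± 0.79 in WT/KO (8.55% to 10.5%; SD, n = 3, 3 and 5). It made up 5.54% ± 0.363 in D45/D45 (5.13% to 5.81%, n = 3) and 1.23% ± 0.242 in D45/KO (0.942% to 1.52%, n = 4). The 5 genotypes fell in the order WT/WT, WT/D45, WT/KO, D45/D45, D45/KO by mean share. WT/D45 (10.4% to 14.2%) overlapped both WT/WT and WT/KO, and the ranges of WT/KO, D45/D45 and D45/KO did not overlap. This share was chosen after the values were seen, is not adjusted for gene length, and is given without a test. Within a genotype the share of Slc1a5 differed little between libraries high and low in B cell markers. In WT/WT, for example, it was 12.7% to 14.4% over both kinds. Separate ranges were not particular to Slc1a5. In D45/KO the share of Slc7a5 was 18.7% to 23.0% and that of Slc3a2 14.6% to 21.7%. Both lay above WT/WT (13.6% to 15.5% and 10.9% to 14.4%) and WT/KO (13.3% to 17.9% and 11.3% to 14.5%). Against WT/WT, Slc38a5 (higher) and Slc43a1 (lower) did not overlap either.

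**Figure D2:**
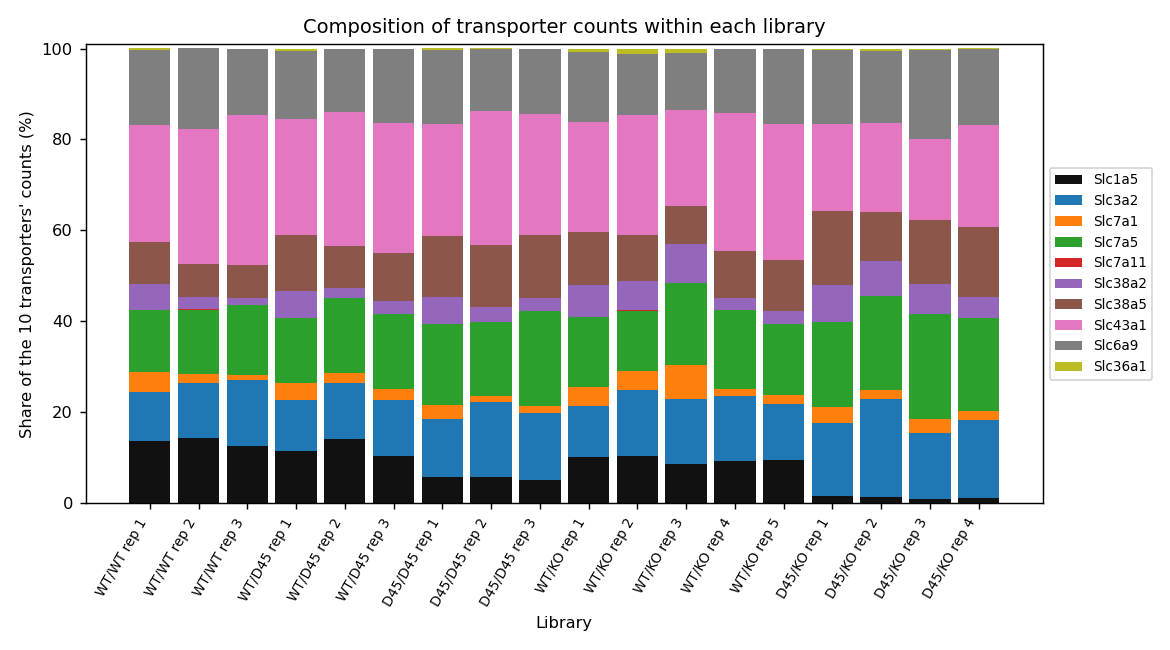
Share of the counts of the 10 transporters (vertical axis, %) held by each gene in each of the 18 libraries, as stacked bars with Slc1a5 in black at the base. The black segment is 12.7% to 14.4% in WT/WT, 5.13% to 5.81% in D45/D45 and 0.942% to 1.52% in D45/KO.

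Per kilobase of exon (GENCODE M21, union of exons of protein-coding transcripts), so that genes can be set beside each other, the WT/WT median of Slc1a5 was 218 CPM per kb. This was second to Slc43a1 at 343 CPM per kb and above Slc6a9 at 203, Slc7a5 at 168, Slc3a2 at 166.1 and Slc38a5 at 138 CPM per kb. In D45/KO the median of Slc1a5 was 9.33 CPM per kb, below Slc38a5 at 148, Slc7a5 at 137, Slc3a2 at 125, Slc43a1 at 112, Slc6a9 at 109 and Slc38a2 at 30.8 CPM per kb, and near Slc7a1 at 8.46 CPM per kb. Slc36a1 (0.821 and 0.873 CPM per kb in WT/WT and D45/KO) and Slc7a11 (0.00239 and 0.0136) were at the bottom in both genotypes. Slc1a5 thus stood at the second place of this order in WT/WT and at the seventh in D45/KO. A lower place than in WT/WT was not particular to D45/KO. The median of Slc1a5 was 172 CPM per kb in WT/D45, 77.5 in D45/D45 and 40.9 in WT/KO. In all 3 it lay below Slc43a1, Slc7a5, Slc38a5 and Slc3a2, and in D45/D45 and WT/KO also below Slc6a9. These medians mix libraries high and low in B cell markers, in shares that differ between genotypes.

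The heavy chain Slc3a2 and the leucine exchanger Slc7a5, which its product carries to the surface, did not pass the test in D45/KO over all libraries, and both were higher than in WT/KO within the libraries high in B cell markers, as given further on. Slc3a2 was at 280, 370, 388 and 539 CPM in D45/KO, at 172, 502 and 750.5 CPM in WT/WT and at 124.5, 141, 168.5, 659.5 and 581 CPM in WT/KO. Its log2 fold change in D45/KO was -0.27 ± 0.66 against WT/WT and 0.24 ± 0.58 against WT/KO. Slc7a5 was at 327, 352, 612 and 644 CPM in D45/KO, at 216, 591 and 808 CPM in WT/WT and at 168, 129, 208, 809 and 741 CPM in WT/KO. Its log2 fold change was -0.15 ± 0.68 against WT/WT and 0.23 ± 0.59 against WT/KO. For both genes the edgeR adjusted p was 0.963 or more in these 2 comparisons. Their WT/KO libraries fell into 3 low and 2 high ones, which are the libraries high and low in B cell markers.

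Slc43a1 (LAT3), a transporter of leucine and other large neutral amino acids that works without the heavy chain, was the member with the highest level per kilobase in WT/WT. It was at 334, 333, 477 and 704 CPM in D45/KO, at 407, 1239 and 1719 CPM in WT/WT and at 268.2, 255, 243.5, 1402 and 1411 CPM in WT/KO. The log2 fold change was -1.28 ± 0.73 against WT/WT (edgeR adjusted p 0.690) and -0.63 ± 0.65 against WT/KO (adjusted p 0.927), and the groups overlapped in both. In D45/D45 it was at 465, 1278 and 1112 CPM, inside the WT/WT range. Against WT/KO its sign turned within the libraries high in B cell markers, to 0.62 (adjusted p 0.191), and within the low ones it was -0.95 (adjusted p 0.704).

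The glutamine transporters of the SLC38 family did not follow Slc1a5. Slc38a2 (SNAT2), which is induced by amino acid shortage in many cells, stood at 142, 129, 176 and 145 CPM in D45/KO, above the 92.3, 117 and 82.6 CPM of WT/WT, so the groups did not overlap, which held in the higher direction for 6.69% of all genes. Its log2 fold change was 0.60 ± 0.28 (p 0.0432, edgeR adjusted p 0.531). In WT/KO it was at 78.5, 62.6, 99.4, 116 and 135 CPM, which reaches into the D45/KO range, with a log2 fold change of 0.59 ± 0.24 (p 0.0244, adjusted p 0.769). Slc38a2 therefore did not pass the test in either comparison. Slc38a5 (SNAT5), a carrier of glutamine, glycine and serine, was at 282, 185, 374.5 and 480 CPM in D45/KO, beside 146, 306 and 377 CPM in WT/WT, with a log2 fold change of 0.26 ± 0.63 (adjusted p 0.999). In D45/D45 it was at 253.5, 586 and 574.5 CPM, and its log2 fold change of 0.77 ± 0.67 against WT/WT did not pass either (adjusted p 1).

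Slc6a9 (GLYT1) imports glycine, a substrate of haem synthesis. It was at 284, 269, 521 and 531 CPM in D45/KO, at 261.9, 745.5 and 759 CPM in WT/WT and at 169.5, 131, 147, 648 and 786 CPM in WT/KO. The log2 fold change was -0.55 ± 0.65 against WT/WT (edgeR adjusted p 0.978) and 0.09 ± 0.57 against WT/KO (adjusted p 0.989), so neither passed over all libraries, while within the high libraries it was higher than in WT/KO, as given further on. Slc7a1 (CAT1), the main importer of arginine and lysine in many cells, had genotype means from 55.7 ± 4.79 CPM in D45/D45 (SD, n = 3) to 83.6 ± 29.7 CPM in WT/D45 (n = 3), with 58.4 ± 19.6 CPM in D45/KO (n = 4). Its log2 fold change in D45/KO was -0.28 ± 0.35 against WT/WT and -0.18 ± 0.31 against WT/KO.

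Slc36a1 (PAT1), which moves small neutral amino acids with protons out of lysosomes, was low in every library, from 0.854 to 10.6 CPM. Its log2 fold change in D45/KO was 0.08 ± 0.80 against WT/WT and -0.51 ± 0.71 against WT/KO, and neither passed. Slc7a11 (xCT), the cystine and glutamate exchanger, was close to undetected. It had 35 counts in all in WT/WT, 34 of them in 1 library, 44 in WT/D45, 67 in WT/KO and 39 in D45/KO. In the 3 D45/D45 libraries it had 0 counts, which allows up to 3 counts over the group, or 0.0325 CPM, and this limit covers counting error only. Pooled over each group its level was 0.549 CPM in WT/WT, 0.312 CPM in WT/KO and 0.251 CPM in D45/KO. D45/KO and D45/D45 did not overlap for this gene (2.48% of all genes did so in this direction), and no fold is given between them because its size would rest on the prior count of the fit.

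**Figure D3:**
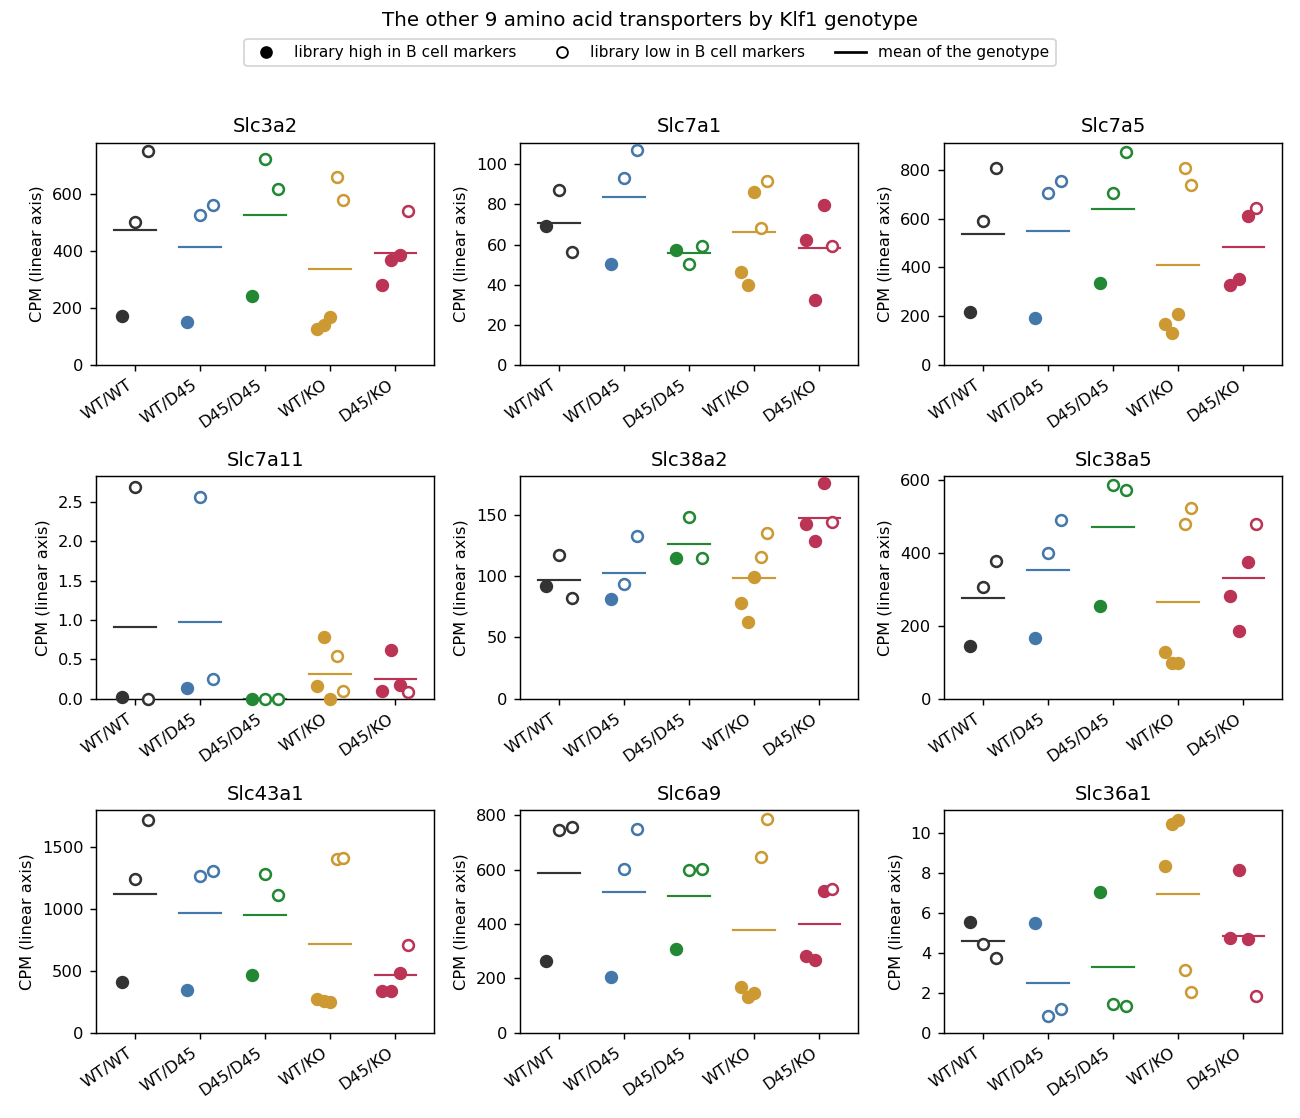
CPM (vertical linear axes) of the other 9 transporters in each of the 18 libraries by Klf1 genotype; filled points are libraries high in B cell markers, open points those low in them, and lines are genotype means. For Slc3a2, Slc7a5, Slc38a5, Slc43a1 and Slc6a9 filled points lie low and open points high within each genotype, and for Slc36a1 the order is turned round.

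**Figure D4:**
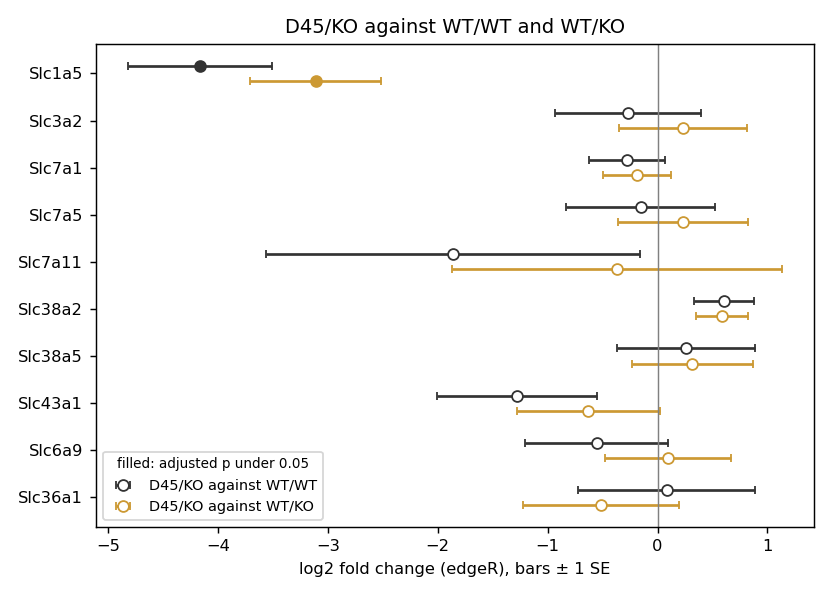
log2 fold change (horizontal axis) of each transporter in D45/KO against WT/WT (black) and against WT/KO (orange) with bars of 1 SE; filled points have an adjusted p under 0.05. The 2 points of Slc1a5, at -4.16 and -3.11, are the filled ones, and the other 9 genes lie between -1.86 and 0.60.

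Over the 10 genes the median log2 fold change in D45/KO was -0.272 against WT/WT, where it was 0.0727 over all genes, and -0.0458 against WT/KO, where it was -0.145 over all genes. The groups did not overlap for 2 of the 10 genes against WT/WT, Slc1a5 (lower) and Slc38a2 (higher), beside 3.55% of all genes lower and 6.69% higher. Against WT/KO they did not overlap for 1 of the 10, Slc1a5, beside 0.925% of all genes lower and 1.78% higher.

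Several of the other transporters differed with the B cell marker level of the library, within each genotype. Across all genotypes, Slc3a2 was at 124.5 to 388 CPM in the 9 libraries high in B cell markers and at 502 to 750.5 CPM in the 9 low ones. Slc43a1 was at 243.5 to 477 CPM against 704 to 1719 CPM, and Slc6a9 at 131 to 521 CPM against 531 to 786 CPM. None of these 3 genes overlapped between the 2 sets of libraries. The share of all genes without such overlap was not counted, so this does not set the transporters apart from other genes. Slc7a5 (129 to 612 CPM against 591 to 877 CPM) and Slc38a5 (97.8 to 374.5 CPM against 306 to 586 CPM) overlapped at the edges. Slc36a1 ran the other way, at 4.70 to 10.6 CPM in the high set and 0.854 to 4.43 CPM in the low set, again without overlap. Slc7a1 (32.3 to 86.2 CPM against 50.3 to 107 CPM) and Slc38a2 (62.6 to 176 CPM against 82.6 to 149 CPM) overlapped over most of their range. The erythroid and maturation markers differed between the same 2 sets, as given above, and the part of other cells or of maturation in these transporter levels was not tested.

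Within the libraries high in B cell markers, D45/KO stood above WT/KO for several transporters. There the 3 D45/KO libraries were at 280, 370 and 388 CPM for Slc3a2 and the 3 WT/KO ones at 124.5, 141 and 168.5 CPM. Slc38a5 (log2 fold change 1.42, edgeR adjusted p 0.0251), Slc7a5 (1.39, adjusted p 0.0321), Slc3a2 (1.30, adjusted p 0.0220) and Slc6a9 (1.30, adjusted p 0.0356) were higher and Slc1a5 was lower, so 5 of the 10 transporters were called in that fit, beside 7.55% of all 14611 genes it tested (4.84% higher, 2.71% lower). Slc38a2 had a log2 fold change of 0.94 (adjusted p 0.0561). Within the low libraries the same 4 genes had log2 fold changes of -0.02, -0.22, -0.16 and -0.39 in that order, with adjusted p 1 and 1 D45/KO library. The 3 D45/KO libraries of the high set had a lower mean log2 CPM of B cell markers (3.61 to 5.70) than the 3 WT/KO ones (6.82 to 7.06), and higher Klf1, at 584.5, 281.7 and 676 CPM against 230, 158 and 191 CPM. Over all libraries and adjusted for the marker level, the log2 fold changes against WT/KO were 0.55 for Slc38a5 (adjusted p 0.209), 0.51 for Slc7a5 (0.358), 0.51 for Slc3a2 (0.301) and 0.38 for Slc6a9 (0.543), so none of the 4 was called.

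Markers of other cells were set beside the Slc1a5 result as whole lists. Summed megakaryocyte markers (7 of 7 in the file) were at 427 to 815 CPM in D45/KO, 215 to 618 CPM in D45/D45, 37.1 to 205 CPM in WT/WT, 47.1 to 171.3 CPM in WT/D45 and 59.1 to 263.5 CPM in WT/KO. Most of this was Itga2b, an integrin subunit that early erythroid cells also express, with 324 to 654 CPM in D45/KO against 8.39 to 137 CPM in WT/WT. Vwf (64.8 to 111 CPM against 11.8 to 46.6 CPM) and Gp9 (26.7 to 52.9 CPM against 11.7 to 24.6 CPM) also lay above WT/WT in D45/KO without overlap. The other 4 genes of the list, Pf4, Ppbp, Itgb3 and Gp1bb, were at no more than 0.404, 0.446, 7.22 and 0.174 CPM in D45/KO, and Pf4 and Gp1bb were at 0 in 2 of its 4 libraries. Summed macrophage and monocyte markers ran from 93.4 to 2815 CPM in D45/KO and 234 to 434 CPM in WT/WT, T and NK markers from 7.76 to 30.2 and 28.2 to 33.1 CPM, and neutrophil markers from 20.0 to 199.6 and 113 to 291.2 CPM. Of all these lists, the erythroid ones and the B cell markers, edgeR called 1 gene in D45/KO against WT/WT and 0 against WT/KO. The gene called was Lck of the T and NK list (lower, adjusted p 0.0454). In both comparisons DESeq2 called Itga2b and Lck, and limma-voom called 0. The fit with the B cell marker covariate called Itga2b, Gp9, Vwf, Lck and the erythroid gene Gata1 in both. Lck was at 6.32 to 11.2 CPM in D45/KO and at 18.2 to 28.2 CPM in WT/WT, where it was most of the T and NK sum. It reached 28.2 CPM in libraries low in B cell markers, where no other gene of that list passed 5.77 CPM (Cd3d). Its level alone therefore does not give the share of T cells. Early erythroid progenitor genes summed to 509.6 to 1829 CPM in D45/KO and 384 to 1037 CPM in WT/WT, nearly all of it Zfpm1 (498 to 1820 against 347 to 1030 CPM), and the other 5, Kit, Gata2, Myb, Myc and Cd34, reached no more than 17.5 CPM in WT/WT and 10.5 CPM in D45/KO. The part of these cells in the Slc1a5 result was not tested.

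Beyond the 10 genes, a list of 46 other amino acid transporters had 22 members among the genes tested. In D45/KO 1 of the 22 was called against WT/WT and the same 1 against WT/KO, both lower, beside 0.619% and 0.172% of all genes, and that gene was Slc6a20a, a carrier of proline and other imino acids. It was at 1.06, 1.34, 0.522 and 2.34 CPM in D45/KO, at 23.1, 30.8 and 25.4 CPM in WT/WT and at 7.48, 6.70, 5.44, 21.9 and 26.4 CPM in WT/KO. In WT/D45 it was at 14.3, 24.1 and 27.5 CPM, and in D45/D45 at 3.72, 9.36 and 7.30 CPM. As for Slc1a5, the D45/KO libraries lay below all 14 others. Unlike Slc1a5, which overlapped there, Slc6a20a in D45/D45 lay below WT/WT and WT/D45. The log2 fold change in D45/KO was -4.31 ± 0.63 against WT/WT (19.9-fold lower, edgeR adjusted p 0.00363) and -3.35 ± 0.58 against WT/KO (10.2-fold lower, adjusted p 0.0202).

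The first call on Slc6a20a was kept in all 7 fits that left out 1 library. The second had log2 fold changes from -3.77 to -2.96 over 9 such fits, and it was lost without WT/KO replicate 4 (adjusted p 0.0624) or D45/KO replicate 1 (0.135), 2 (0.0747) or 3 (0.0955), in limma-voom (0.134) and in a fit of the 2 genotypes alone (0.223). Against D45/D45 the log2 fold change was -2.35 (adjusted p 1), and for D45/D45 against WT/WT it was -1.96 (adjusted p 1). DESeq2 called Slc6a20a in both, as did the fit with the B cell marker covariate, while limma-voom did not. The same held for the interaction. Slc6a20a has a close paralog, Slc6a20b, in the same table, with at most 10 counts per library. No source used here says how reads shared by both were counted, so how far this affects the values of Slc6a20a is not known.

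**Figure D5:**
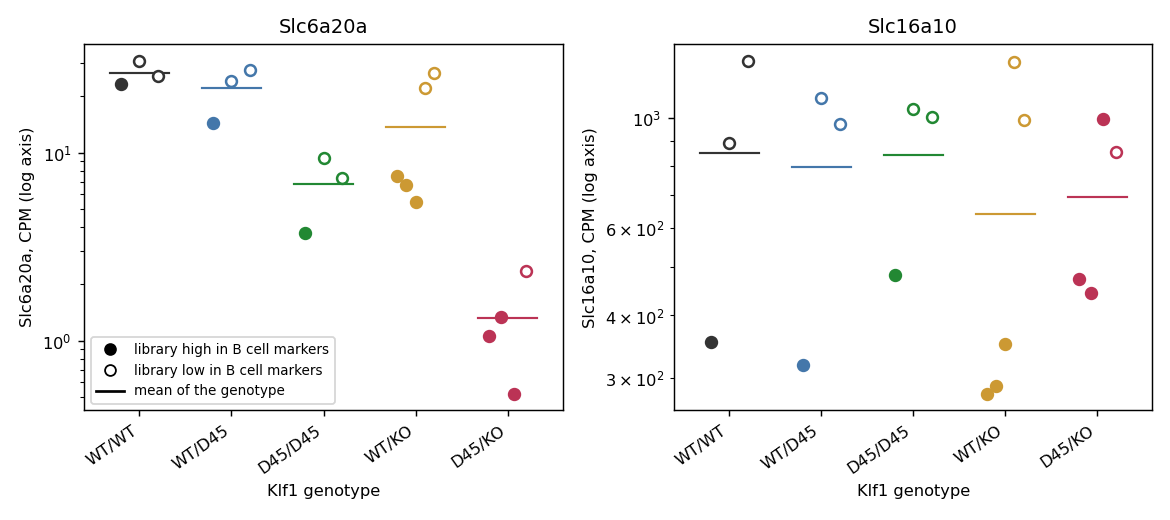
CPM (vertical log axes) of Slc6a20a and Slc16a10 in each of the 18 libraries by Klf1 genotype; filled points are libraries high in B cell markers, open points those low in them, and lines are genotype means. Slc6a20a is at 0.522 to 2.34 CPM in D45/KO and at 23.1 to 30.8 CPM in WT/WT, whereas the Slc16a10 points of all genotypes overlap.

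The 5 other transporters with the highest mean level were not called in any comparison. Slc16a10 (TAT1), a carrier of aromatic amino acids, was at 692 ± 276 CPM in D45/KO (SD, n = 4) and 848 ± 476 CPM in WT/WT (n = 3), with a log2 fold change of -0.29 ± 0.64. The lysosomal arginine sensor Slc38a9 was at 95.9 ± 14.4 and 95.1 ± 27.3 CPM, with a log2 fold change of 0.01 ± 0.46. Slc38a10 (0.06 ± 0.25), the neutral amino acid transporter Slc43a2 (0.79 ± 0.94) and the taurine transporter Slc6a6 (0.89 ± 1.14) did not pass either. Over the 22 genes the median log2 fold change was 0.709 against WT/WT and -0.196 against WT/KO, beside 0.0727 and -0.145 over all genes.

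The pathways that read amino acid supply were followed in 3 further lists. Over all 13405 genes, D45/KO against WT/WT had 1197 with an unadjusted p under 0.05, 406 called by DESeq2 and 75 by limma-voom. Of 31 tested genes of amino acid sensing by mTORC1, 0 were called by edgeR in D45/KO against WT/WT, while 7 had an unadjusted p under 0.05 (6 higher, 1 lower), DESeq2 called 2, Flcn and Tsc2, and limma-voom 0. Their median log2 fold change was 0.248, and the kinase gene Mtor was at 35.6 ± 4.57 CPM in D45/KO (SD, n = 4) and 27.9 ± 3.08 CPM in WT/WT (n = 3). Of 31 tested genes of the integrated stress response 0 were called by edgeR, 2 had an unadjusted p under 0.05, both lower, DESeq2 called 1, Cebpg, and limma-voom 0. The median was 0.051, and Atf4, the transcription factor at the centre of the response, averaged 318 ± 127 CPM in WT/WT and 160 ± 27.4 CPM in D45/KO (log2 fold change -0.99 ± 0.47, adjusted p 0.568).

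Of 15 tested genes of glutathione and glycine use 0 were called by edgeR, 2 had an unadjusted p under 0.05, both lower, and limma-voom called 0. Their median log2 fold change was -0.641, with 13 of 15 values below 0 where 54.2% of all genes lay above 0. This was not particular to D45/KO. Against the same WT/WT libraries, 13 of 15 were below 0 in WT/KO (median -0.647) and in WT/D45 (-0.386), and 10 in D45/D45 (-0.592). Gclc, the catalytic subunit of the first enzyme of glutathione synthesis, had a log2 fold change of -0.49 ± 0.49 in D45/KO. Genes named here for a call by DESeq2 or limma-voom alone were chosen after their values were seen. Against WT/KO edgeR called 0 genes in each of these 3 lists and 2 genes in each had an unadjusted p under 0.05, beside 725 of all genes. There DESeq2 called 0 genes in each, and limma-voom called 1, Trib3, in the stress response list and 0 in the others.

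The genes whose levels followed Slc1a5 most closely were Snx22, Slc2a4, Kctd14, Nxpe2 and Cd36, ranked by Pearson correlation of log2 CPM over the 18 libraries among 9078 genes with a mean of at least 2 CPM. Within the 9 libraries high in B cell markers r was 0.972 for Snx22, a sorting nexin, 0.989 for Slc2a4, the insulin-responsive glucose transporter GLUT4, 0.949 for Kctd14, 0.993 for Nxpe2 and 0.919 for the fatty acid transporter Cd36. Within the 9 low libraries r was 0.989, 0.96, 0.982, 0.972 and 0.962 in the same order. The points share library, depth and genotype, so these values are a description. Mean levels in D45/KO were 5.22 CPM for Snx22, 9.38 CPM for Slc2a4, 2.77 CPM for Kctd14, 13.2 CPM for Nxpe2 and 46.3 CPM for Cd36, and in WT/WT 193, 107, 97.8, 386 and 668 CPM. Since D45/KO is the lowest group for Slc1a5, the choice of these genes sets that they are low there, and no test of it is given. In D45/D45 the means were 44.96 CPM for Snx22, 73.2 CPM for Slc2a4, 22.4 CPM for Kctd14, 129 CPM for Nxpe2 and 339 CPM for Cd36. These lay between D45/KO and WT/WT, as Slc1a5 did at 190.5 CPM. The D45/D45 libraries entered the correlations, so the choice of the genes sets this too.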

How the data were processed

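Per the labels' protocols, RNA of the sorted spleen cells was taken up in Trizol, and libraries were made with a Swift Rapid kit. The deposited table holds raw counts per gene for 18 libraries. Per the submitters' processing notes the authors used the mouse build mm9, featureCounts, HISAT2 and limma (roles and versions unstated). Their strand setting was not stated in any source used. The authors' deposited table of WT/WT over WT/KO holds log2 values, p-values and adjusted p-values, and it was used only where named.

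The transporters and all gene lists were chosen with earlier results of these data known. Counts were filtered with filterByExpr, which left 13405 of 23365 genes, scaled by TMM and fitted with genotype as the only term over all 18 libraries in edgeR 4.0.16 (R 4.3.3), by the quasi-likelihood F test with Benjamini-Hochberg adjustment over all genes and a threshold of 0.05. The SE of a log2 fold change is its size divided by the square root of F, which is approximate. Log2 CPM values used a prior count of 2. Total counts of 9360455 to 56323588 per library set the counting error. The p-values set each difference against the spread between mice of the same genotype, estimated over all 5 genotypes together. In the main fit this spread includes the differences between libraries high and low in B cell markers. DESeq2 1.42.0 and limma 3.58.1 were alternatives, with other scaling and filters, a replicate block, a B cell marker covariate, each set of libraries alone and each library left out. Fits were tested on simulated counts with known changes. The DESeq2 result of the glutathione and glycine list in D45/KO against WT/WT is not reported here. The named genes were the 10 transporters, Klf1, called genes and the 5 most abundant of the other transporter list, the opening gene of each further list, and the 5 genes most correlated with a called transporter.

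Same-numbered libraries deviated together in D45/D45 and WT/WT (correlations 0.714, 0.355 and 0.192) and in WT/D45 and WT/WT (0.707, 0.215 and 0.119). In each of these genotypes replicate 1 was high in B cell markers and replicates 2 and 3 were low. Pairing by number, which the labels do not state, therefore cannot be told apart from marker level. Promoter sequences are RefSeq's on GRCm38.p6, joined to the mm9 counts by symbol only, and exon lengths are from GENCODE M21.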

Additional observations from a re-analysis of the deposited data

Results flagged for a closer look

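Slc7a11 stood at 0.624 CPM in D45/KO replicate 2, from 28 counts, apart from the other 3 D45/KO libraries, which had 6, 2 and 3 counts. Of 20 groups of values examined for a lone high or low library this was the 1 that stood out, and chance sets apart about 1 in 20 such groups.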

How the results depend on the processing

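Slc1a5 stayed lower in D45/KO than in WT/WT, and stayed called, in every setting run. Against WT/KO it stayed lower in every setting, and the call was lost in a fit of those 2 genotypes alone and in 6 of 9 fits without 1 library. The number of called genes moved more. The fits gave, for D45/KO against WT/WT, 83 genes, and 406 with DESeq2, 126 with DESeq2 size factors (44 higher, 82 lower), 555 with the B cell marker covariate (336 higher, 219 lower), 322 in the low libraries and 10 in the high ones. For D45/KO against WT/KO, where 23 were called (15 higher, 8 lower), they gave 185 with DESeq2, 38 with DESeq2 size factors, 67 with limma-voom (63 higher, 4 lower), 6 with the 2 genotypes alone, 404 with the covariate (298 higher, 106 lower), 46 in the low libraries (9 higher, 37 lower) and 1103 in the high ones. For D45/KO against D45/D45, with 1 called, they gave 16 with DESeq2, 0 with limma-voom, 5 with the 2 genotypes alone, 18 with the covariate, 11 in the low libraries and 0 in the high ones. For D45/D45 against WT/WT, with 0 called, they gave 69 with DESeq2, 3 with DESeq2 size factors, 1 with the 2 genotypes alone, 53 with the covariate and 186 in the low libraries. WT/D45 against WT/WT gave 3 in the low libraries in place of 0. WT/KO against WT/WT gave, in place of 0, 19 with DESeq2, 1 with limma-voom, 4 with the covariate and 23 in the low libraries. The interaction, with 1 called, gave 14 with DESeq2, 23 with the covariate, 16 in the low libraries, and 0 with limma-voom, with only the genotypes concerned and in the high libraries. DESeq2 size factors moved the median log2 fold change of all genes from -0.145 to -0.264 for D45/KO against WT/KO, and from 0.0115 to -0.103 for D45/D45 against WT/WT.

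Of the 10 transporters, against D45/D45, 1 was called in place of 0 with DESeq2, the 2 genotypes alone, the covariate and the low libraries. In D45/D45 against WT/WT and in the interaction 1 was called in place of 0 with the covariate and in the low libraries. Against WT/KO 0 were called with the 2 genotypes alone and 5 in the high libraries, in place of 1. Transporters that were not called changed sign in some settings. Against WT/WT the log2 fold change of Slc36a1 was -0.14 with limma-voom, -0.56 with the covariate and -1.16 in the low libraries, that of Slc3a2 0.30 with the covariate and 0.95 in the high libraries, and that of Slc7a5 0.37 and 0.93 in the same settings. In the high libraries Slc6a9 was at 0.39 and Slc7a11 at 3.52, and with limma-voom Slc7a11 was at 0.19. Against WT/KO the low libraries gave -0.018 for Slc38a5, -0.16 for Slc3a2, -0.39 for Slc6a9 and -0.22 for Slc7a5, and the high ones 0.62 for Slc43a1 and 0.059 for Slc7a1. The cause of these changes was not tested.

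With the replicate number as a block, 209 genes were called for D45/KO against WT/WT (80 higher, 129 lower), 128 against WT/KO (110 higher, 18 lower), 12 against D45/D45, 10 for D45/D45 against WT/WT and 0 for the interaction. The block called 1 transporter against D45/D45, Slc1a5 (log2 fold change -2.98, adjusted p 0.0156), and gave Slc38a5 -0.037 against WT/WT and Slc43a1 0.14 against WT/KO. Correlations of same-numbered deviations were 0.357, -0.306 and 0.0422 for D45/KO and WT/WT, 0.438, 0.631, 0.0522 and 0.626 for D45/KO and WT/KO, 0.309, -0.442 and 0.0438 for D45/KO and D45/D45 and 0.659, -0.347 and -0.121 for WT/KO and WT/WT. The labels give these genotypes only a shared number. In both D45/KO and WT/KO, replicates 1 to 3 were high in B cell markers and replicate 4 was low, so number and marker level cannot be told apart there. The block changed no other call on a transporter.

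Leaving out 1 library gave 19 to 121 genes for D45/KO against WT/WT, moving by over 1.5 times without WT/WT replicate 2 or 3 or D45/KO replicate 1, 3 or 4. Against WT/KO it gave 9 to 36, moving so much without WT/KO replicate 1, 2, 4 or 5 or D45/KO replicate 1, 3 or 4. It gave 0 to 1 against D45/D45 (0 without D45/KO replicate 2, 3 or 4), 0 to 3 for D45/D45 against WT/WT, 0 to 1 for WT/KO against WT/WT and 0 to 2 for the interaction, with 0 to 1 transporters called against WT/KO. The sign of uncalled transporters also changed with 1 library left out. Against WT/WT the log2 fold changes were -0.29 to 0.35 for Slc36a1, -0.045 to 0.55 for Slc38a5, -0.66 to 0.23 for Slc3a2, -0.53 to 0.26 for Slc7a5 and -2.95 to 3.64 for Slc7a11. Against WT/KO they were -0.12 to 0.55 for Slc6a9, -0.34 to 0.016 for Slc7a1 and -1.47 to 0.33 for Slc7a11. Genes with few counts, such as Slc7a11, are limited by depth.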
